A study of Mus musculus with 30 samples.

Results

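Macrophages that carried the mannose receptor CD206 and high MHC class II were compared with macrophages that lacked CD206, sorted from the same mouse mammary tumours. The comparison used 10 of the 30 bulk RNA-seq libraries of the study: 5 of the CD206-positive, MHCII-high population and 5 of the CD206-negative, MHCII-low population, called CD206pos and CD206neg below. Libraries were chosen by the population given in their labels, and each of the 5 tumours gave 1 library of each population. The tumours arose in FVB/N-Tg(MMTVPyVT)634Mul/J mice, in which the MMTV promoter drives the polyoma virus middle T antigen in mammary epithelium. They were taken from 5 mice at 750 mm3 and are numbered 5, 6, 8, 10 and 11. The labels list no treatment, and all groups carry the transgene. Both populations were gated as CD45-positive and F4/80-positive cells, and a further macrophage population, CD206-high and MHCII-low (CD206hi, 5 libraries), served as a second reference.

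CD206, the product of Mrc1, is an endocytic lectin that binds mannosylated and fucosylated glycans, and it marks macrophages exposed to interleukin 4 or interleukin 13 as well as many resident macrophages of connective tissue. MHC class II molecules present peptides to CD4 T cells, and their genes are switched on together by the coactivator Ciita. In mammary tumours both markers are used to part macrophages, since cells near vessels, in the stroma and in poorly oxygenated regions carry them at different levels.

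Total counts of the 10 libraries ran from 6292411 to 9884896, with 11514 to 12785 genes detected, so that 3 counts, the most that an unseen gene allows, correspond to 0.303 to 0.477 CPM (counts scaled to a library total of 1e6). These limits cover counting error only. Per-library values below are CPM in the order of tumours 5, 6, 8, 10 and 11, and log2 fold changes (CD206pos over CD206neg, ± SE) come from 1 model of all 15 macrophage libraries with tumour as a block. The labels place the CD206neg libraries of tumours 6 and 8 in the MHCII-low gate and were followed, although their deposited columns are named for the MHCII-high one. Each of the 5 CD206neg libraries was most like another CD206neg library over all genes, and no CD206pos or CD206hi library was. Adjusted p-values (Benjamini-Hochberg, over all genes tested) are from the quasi-likelihood test of edgeR. They set a difference against the spread left between the 15 libraries after population and tumour were fitted, CD206hi included. A call that changed with no tumour block, or with 1 tumour or 1 of its libraries left out, is marked after the value as lost or passed. A single library is marked where leaving it out changed the call and leaving out its whole tumour did not. A called value that then moved by over 1.5 times in fold is also given as it was without that tumour or library.

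The gate was visible in the RNA for CD206. Mrc1 was at 2064, 604, 1196, 968 and 1197 CPM in CD206pos and at 84.4, 23.3, 98.9, 43.3 and 89.2 CPM in CD206neg. The lowest CD206pos library was several times above the highest CD206neg library, and the log2 fold change was 4.02 ± 0.25, adjusted p = 3.78e-08. Mrc1 RNA was low but not at zero in cells sorted as CD206-negative, and in bulk libraries fewer cells of a type and less RNA per cell cannot be told apart. Adgre1, which encodes the F4/80 antigen, was at 754, 310.2, 1025, 328 and 661 CPM and 504, 292, 664, 398 and 604 CPM (log2 fold change 0.04 ± 0.22, adjusted p = 0.904). Ptprc, which encodes CD45, was at 249 to 512 and 246 to 460.2 CPM (-0.19 ± 0.15, adjusted p = 0.409). The groups overlapped for both lineage genes. Of the macrophage identity genes, 0 of 14 tested members rose and 3 fell (21.4%), with a median log2 fold change of -0.37. Of all genes tested, 13.4% rose and 12% fell, and whether the list differs from these shares was not tested. Tyrobp, the adaptor of Trem2 and related receptors, fell (-0.85 ± 0.23, adjusted p = 0.0119, lost without the block or without tumour 11). So did Aif1, an actin-binding protein of macrophages (-1.01 ± 0.22, adjusted p = 0.00393, lost without the block), and Cx3cr1, the fractalkine receptor (-1.05 ± 0.22, adjusted p = 0.00233, lost without the block).

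Over all 11052 genes tested, 2800 (25.3%) differed at adjusted p under 0.05: 1477 (13.4%) were higher in CD206pos and 1323 (12%) were lower. With no tumour block 978 were higher and 647 lower, and 1727 differed without tumour 11. A change of at least 2-fold was met by 767 of the higher genes (6.94% of those tested) and 543 of the lower ones (4.91%). The CPM of the groups did not overlap, with CD206pos higher, for 657 genes (5.94%), and with CD206pos lower for 150 (1.36%). These CPM were scaled to library totals alone, whereas the log2 fold changes also used TMM normalisation factors. The factors ran from 0.648 to 1.367 in CD206neg and from 0.811 to 1.397 in CD206pos. Their effect on the shares without overlap was not tested. The median log2 fold change of all genes was -0.02. These shares are the background for each gene list below, and the plot of list members shows that the lists of perivascular macrophage genes and of endocytic lectins had the highest medians, and those of hypoxia and of the cell cycle the lowest.

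**Figure D1:**
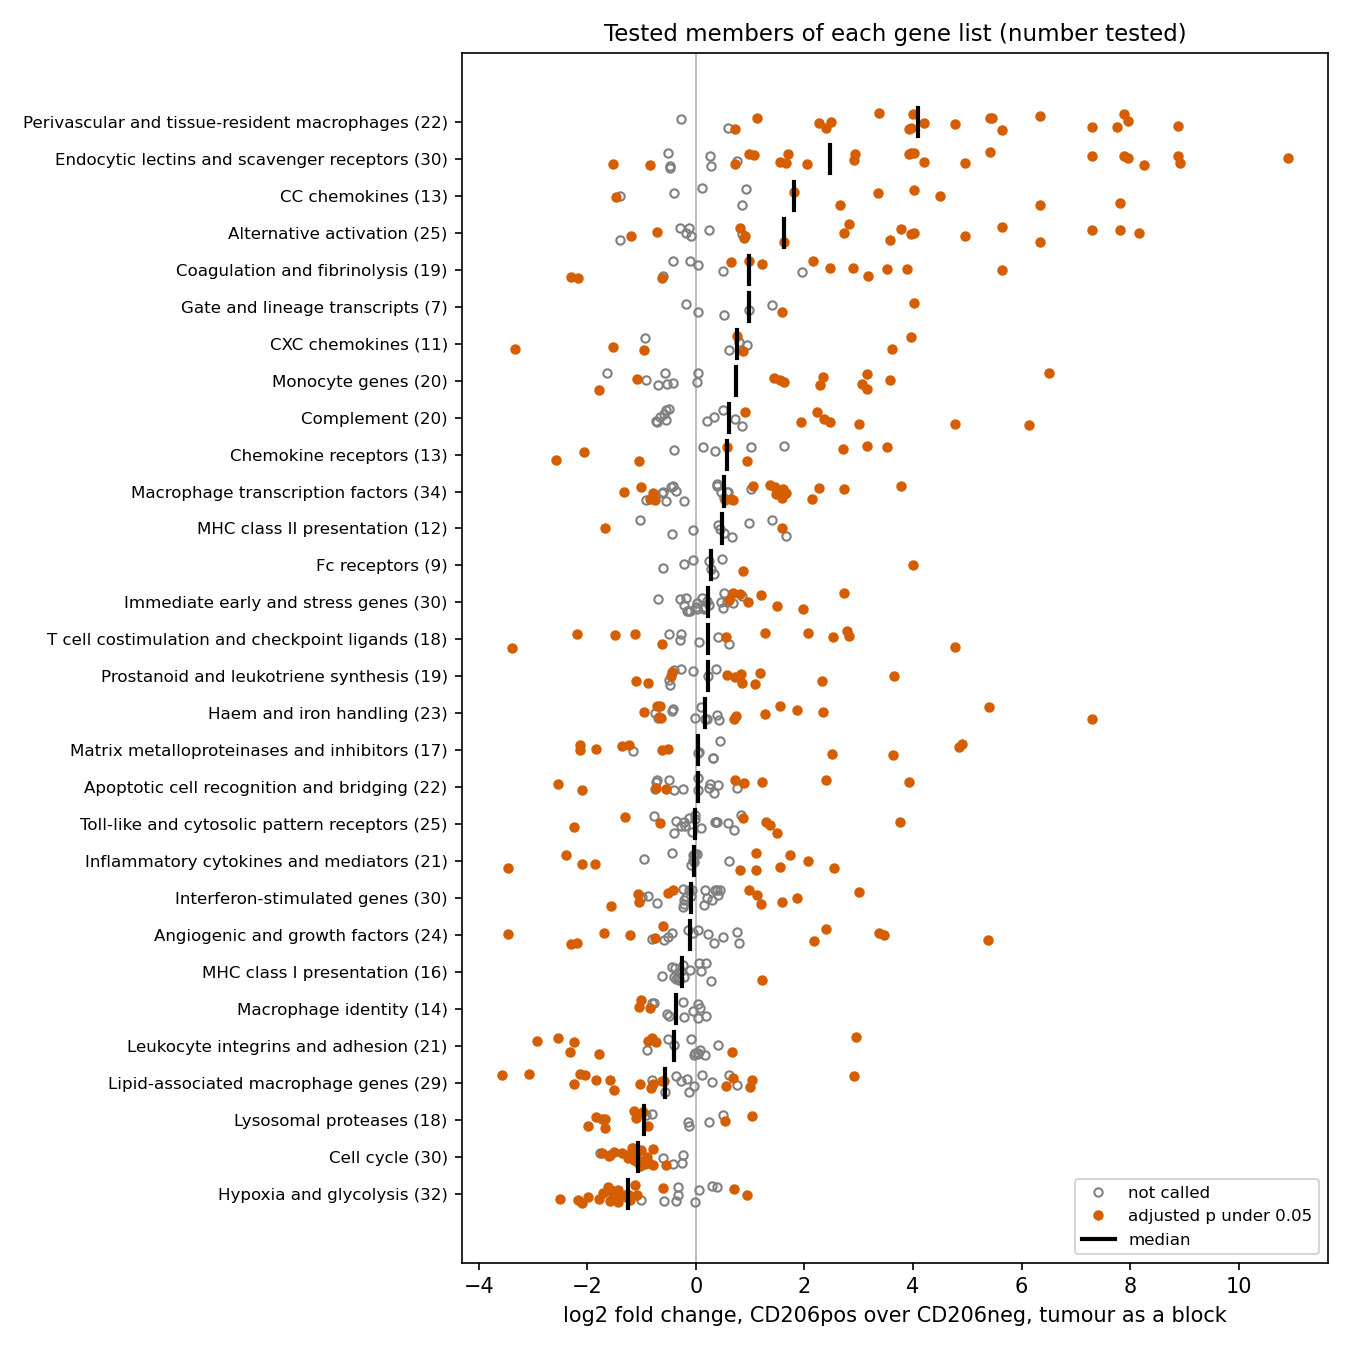
Log2 fold change (horizontal axis, CD206pos over CD206neg) of each tested member of 30 gene lists (rows, ordered by median), from a model with tumour as a block. Filled points passed at adjusted p under 0.05 and open points did not, and the black bar is the median, which ran from -1.26 in the list of hypoxia and glycolysis to 4.10 in that of perivascular and tissue-resident macrophages.

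The markers named for this comparison, besides Mrc1, were Ccl24, Retnla and Ccr2. Ccl24 (eotaxin-2, a ligand of CCR3) was at 196, 106, 115, 134 and 128 CPM in CD206pos and 0.910, 0.132, 0.717, 0.445 and 0.502 CPM in CD206neg, and it rose (7.82 ± 0.44, adjusted p = 3.52e-08). Retnla, a secreted resistin-like protein induced by interleukin 4, was at 986, 8018, 1669, 6879.9 and 8675 CPM and 0.202, 29.1, 30.8, 5.89 and 7.53 CPM. Its level differed between tumours in both groups, with tumours 5 and 8 lowest in CD206pos, yet the groups did not overlap. The log2 fold change was 8.17 ± 1.03, adjusted p = 3.67e-05, 9.27 without CD206neg of tumour 8, 7.56 without CD206pos of tumour 10. Ccr2, the receptor for CCL2 on monocytes, was at 242, 149.9, 285, 201 and 315 CPM and 10, 22.5, 54.9, 14.6 and 22.1 CPM (3.15 ± 0.34, adjusted p = 7.90e-06). All 4 markers were higher in CD206pos in 5 of 5 tumours.

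**Figure D2:**
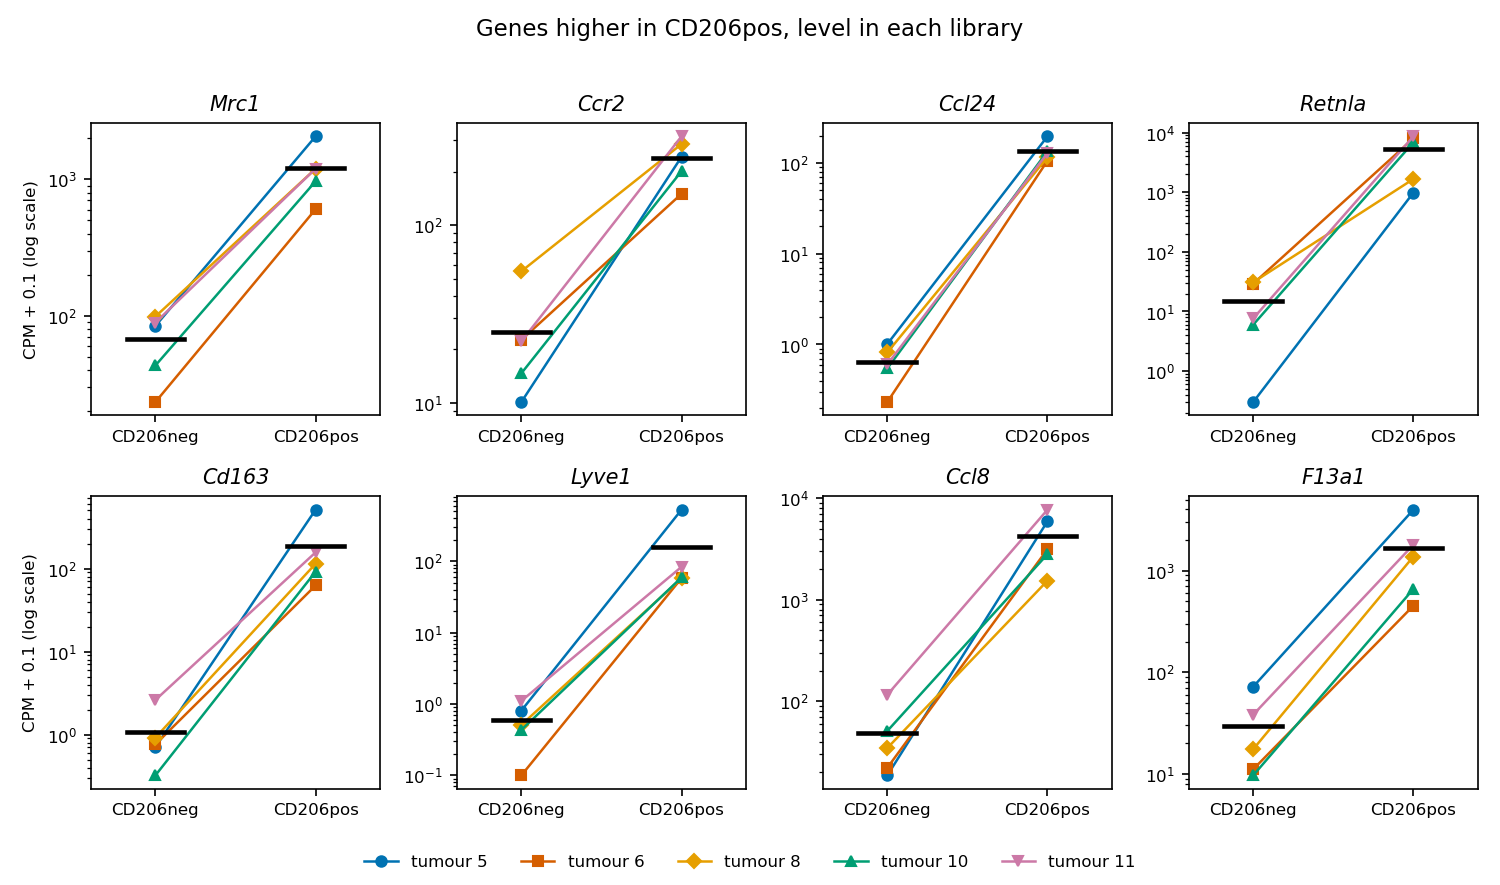
CPM + 0.1 (vertical axes, log scale) of 8 genes in CD206neg and CD206pos libraries, with 1 line for each of the 5 tumours and a black bar at the group mean. All lines rise, from group means of 67.8 to 1206 CPM for Mrc1 and of 0.491 to 157 CPM for Lyve1, and tumour 5 is the highest CD206pos library for Mrc1, Ccl24, Cd163, Lyve1 and F13a1.

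Of the 12 largest rises with the same direction in every tumour, 6 were genes of the Cd209 family: Cd209a, Cd209b, Cd209d, Cd209e, Cd209f and Cd209g. They encode C-type lectins related to human DC-SIGN, which bind mannose-rich glycans. Cd209a was at 194, 104, 26, 109 and 221 CPM in CD206pos and 0, 0.530, 0, 0.222 and 0.879 CPM in CD206neg (8.91 ± 0.60, adjusted p = 7.10e-08, 8.21 without CD206neg of tumour 5). Cd209f was at 526, 233, 67.1, 159.8 and 524 CPM and 0, 0.132, 0.205, 0.445 and 3.39 CPM (8.87 ± 0.62, adjusted p = 8.51e-08, 8.13 without tumour 5, 10.02 without tumour 11). Tumour 8 was the lowest CD206pos library for both, and it still lay above every CD206neg library. Cd209g (7.97 ± 0.55, adjusted p = 8.08e-08, 7.34 without tumour 5, 9.33 without tumour 11) and Cd209b (8.26 ± 0.70, adjusted p = 6.87e-07, 7.31 without tumour 5, 12.11 without tumour 11) moved likewise. Cd209d had 5892 counts over the CD206pos libraries against 3 over the CD206neg libraries, a ratio of CPM of 2050 (95% exact interval 702 to 9950, counting error only). Cd209e had 912 counts against 2, a ratio of 476 (131 to 3940). The same 6 genes were also present in CD206hi. Cd209a had means of 131 ± 77.9 CPM in CD206pos and 110 ± 105 CPM in CD206hi, and Cd209f of 302 ± 212 and 640 ± 651 CPM (SD, n = 5). Means were higher in CD206hi for Cd209b, Cd209d, Cd209f and Cd209g. For none of the 6 did the difference between CD206pos and CD206hi pass (adjusted p = 0.28 to 0.862).

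These genes lie side by side on chromosome 8 of GRCm38 (the build the submitters call mm10), between positions 3743395 and 4137707. The stretch also holds Cd209c (0.810 to 10.3 CPM in CD206pos and 0 to 0.607 CPM in CD206neg, 4.74 ± 0.58, adjusted p = 2.64e-05). Clec4g, another C-type lectin gene just before it, was at 1.04 to 5.81 CPM in CD206pos and had no count in CD206neg. It was thus at least 8.49-fold higher in CD206pos (floor of 3 counts per library). Of the 15 other genes measured within 200 kb of the 7 Cd209 genes, 11 were tested and 8 did not pass. Pet100 rose (0.84 ± 0.21, adjusted p = 0.0093, lost without the block), and Stxbp2 (-0.63 ± 0.13, adjusted p = 0.00279) and Elavl1 (-0.57 ± 0.16, adjusted p = 0.0178, lost without the block or without tumour 6, 10 or 11) fell. Their log2 fold changes ran from -0.63 to 0.84. The genes of this window that are not in the rule for named genes were chosen after their values were seen. Sequence similarity among the Cd209 genes could divide reads between them in a way that depends on the counting, which is not given in the sources used here.

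**Figure D3:**
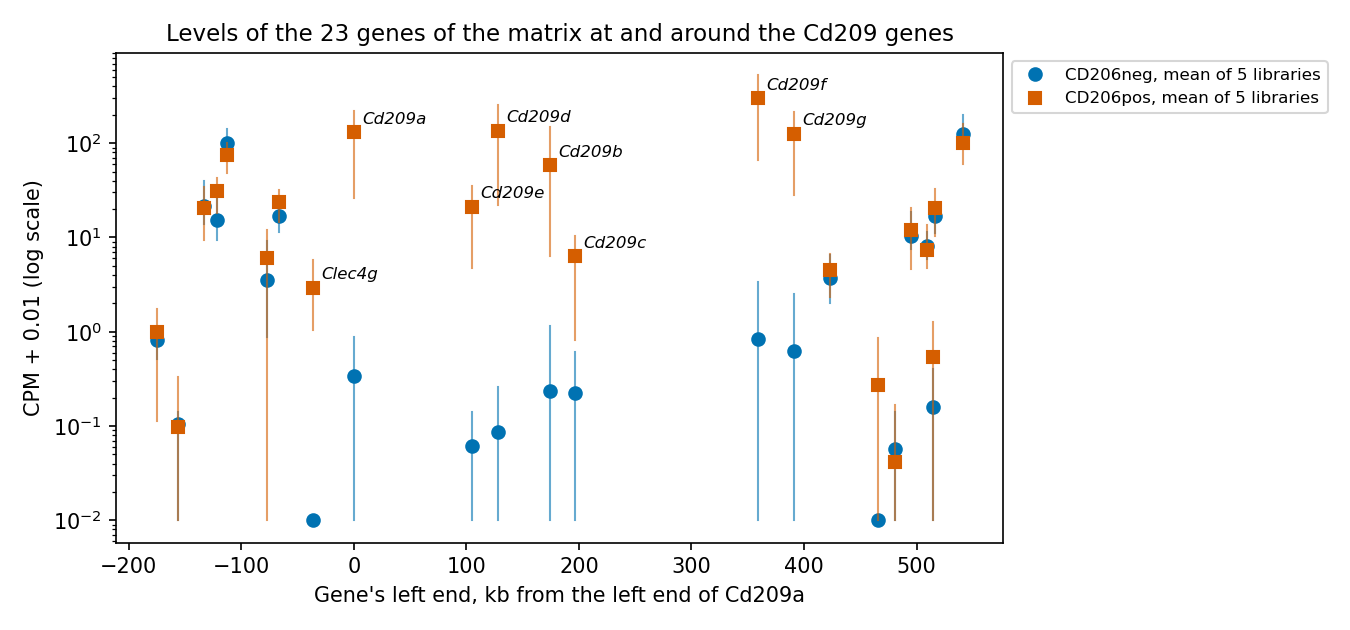
Mean CPM + 0.01 (vertical axis, log scale) of 23 genes by distance in kb from the left end of Cd209a (horizontal axis), in CD206neg (circles) and CD206pos (squares), with vertical lines from the lowest to the highest of 5 libraries. The 7 Cd209 genes and Clec4g lie apart between the groups, with no CD206neg library above 3.39 CPM for a Cd209 gene, while the log2 fold changes of the 11 other tested genes ran from -0.63 to 0.84.

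Promoters from RefSeq (GRCm38.p6, 250 bases before to 50 after the annotated start) were found for 9 of the 12 largest rises and searched on both strands for TTC and GAA 4 bases apart, a site form bound by STAT6, the factor that interleukin 4 and interleukin 13 activate. The motif was present for 2 of the 9, Retnla and Cd209e, and 6.95% of all 32851 promoters of that length hold it. Both are shown 5′ to 3′ for the 250 bases before the start, because they hold this motif, with the match in capitals. The other promoters of the 9 are not shown. It begins 145 bases before the start of Retnla (chr16:48842359-48842608, plus strand) and 79 bases before that of Cd209e (chr8:3854287-3854536, minus strand). None of the other 6 Cd209 promoters holds these letters in this window. Of the same 9 promoters, 6 hold GGG and CC 5 bases apart, a form bound by NF-kB that 50.8% of all promoters hold, and 1, that of Retnla, holds GAGGAAGT, a form bound by PU.1 that 3.20% hold. In Retnla that match lies apart from the one in capitals.
Retnla: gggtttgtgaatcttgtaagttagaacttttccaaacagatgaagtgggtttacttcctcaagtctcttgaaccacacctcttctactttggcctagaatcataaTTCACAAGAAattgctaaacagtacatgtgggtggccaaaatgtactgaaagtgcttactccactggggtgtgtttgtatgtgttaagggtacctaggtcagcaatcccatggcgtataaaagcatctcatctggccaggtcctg
Cd209e: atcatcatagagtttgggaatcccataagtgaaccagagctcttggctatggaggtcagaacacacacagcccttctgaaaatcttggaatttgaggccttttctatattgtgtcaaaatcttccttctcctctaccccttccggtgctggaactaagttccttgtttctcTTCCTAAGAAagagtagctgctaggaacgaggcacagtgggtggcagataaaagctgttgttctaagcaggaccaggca

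The other large rises were genes of diverse function. Lyve1, a hyaluronan receptor of lymphatic endothelium and perivascular macrophages, was at 528, 58, 57.9, 59.3 and 83.5 CPM in CD206pos and 0.708, 0, 0.409, 0.334 and 1.0 CPM in CD206neg (7.89 ± 0.50, adjusted p = 3.78e-08, 6.96 without tumour 5). Ednrb, the endothelin B receptor, was at 1033, 149, 145, 127 and 351 CPM and 1.11, 1.46, 0.717, 0.334 and 3.14 CPM (7.76 ± 0.46, adjusted p = 3.75e-08, 7.01 without tumour 5). For both genes the CD206pos library of tumour 5 was the highest, and all 5 lay above every CD206neg library. Gfra2, a co-receptor for neurturin, had 515 counts in CD206pos against 1 in CD206neg (ratio of CPM 538, 96.1 to 21300), and Entpd3, an ecto-nucleotidase, had 644 against 1 (673, 120 to 26600). Entpd3 was uneven, with 54.4, 1.91, 1.16, 4.22 and 6.69 CPM in CD206pos.

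Genes of perivascular and tissue-resident macrophages formed the most uniform group: 20 of 22 tested members rose and 0 fell, with a median log2 fold change of 4.10. CD206pos lay above CD206neg without overlap for 19 of the 22. F13a1, the A subunit of coagulation factor XIII, was at 3979, 452, 1377, 661 and 1799 CPM and 71.9, 11, 17.4, 9.56 and 38.2 CPM (5.64 ± 0.29, adjusted p = 1.72e-08). Cd163, the scavenger receptor for haptoglobin-bound haemoglobin, was at 511, 62.5, 114, 91.7 and 156 CPM and 0.607, 0.662, 0.819, 0.222 and 2.51 CPM (7.30 ± 0.46, adjusted p = 3.78e-08, 6.52 without tumour 5, 7.94 without tumour 11). Tumour 5 was the highest CD206pos library for both. Fcgrt, the neonatal Fc receptor (4.0 ± 0.32, adjusted p = 3.59e-07), Pf4, a platelet-type chemokine (3.97 ± 0.39, adjusted p = 3.02e-06), and Timd4, a phosphatidylserine receptor (3.92 ± 0.37, adjusted p = 2.08e-06), rose as well. Gas6, the ligand of Axl and Mertk (2.40 ± 0.25, adjusted p = 5.56e-06), and Igf1, insulin-like growth factor I (3.38 ± 0.33, adjusted p = 2.62e-06), were also higher. Hpgds (-0.28 ± 0.17, adjusted p = 0.265) did not pass. The list was drawn up with earlier results of these libraries known, so its direction is no independent evidence.

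Among the endocytic lectins and scavenger receptors, 22 of 30 tested members rose and 2 fell, with a median log2 fold change of 2.47, the Cd209 genes, Cd163, Lyve1 and Mrc1 among those that rose. Clec4e (Mincle, a receptor for glycolipids) rose (0.98 ± 0.20, adjusted p = 0.00253). Scarb2, a lysosomal membrane receptor, fell (-0.85 ± 0.17, adjusted p = 0.00189). So did Cxcl16, a membrane-bound chemokine that also takes up oxidised lipoprotein. It was at 707, 659, 1032, 861 and 728 CPM in CD206pos and 1495, 2235, 2112, 1957 and 1916 CPM in CD206neg (-1.52 ± 0.24, adjusted p = 3.19e-04). Msr1, the type A scavenger receptor (183 to 638 and 150.2 to 597 CPM, -0.48 ± 0.23, adjusted p = 0.131, passed without CD206neg of tumour 8), Clec4n (0.26 ± 0.19) and Clec7a (-0.51 ± 0.27, passed without tumour 8) did not pass. 

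In the list of alternative activation genes, 16 of 25 tested members rose and 2 fell, with a median log2 fold change of 1.63. Mrc1, Ccl24, Retnla, Cd163, F13a1 and Ccl8 were among those that rose. Irf4, a transcription factor that acts downstream of interleukin 4, was at 24.9, 22.7, 12.5, 31.4 and 23.1 CPM and 3.24, 1.32, 1.54, 0.667 and 0.879 CPM (3.77 ± 0.40, adjusted p = 6.07e-06), and Klf4 was at 131, 69.4, 35.1, 163 and 67.1 CPM and 17.5, 11.8, 7.27, 9.12 and 12.4 CPM (2.73 ± 0.28, adjusted p = 5.76e-06). Neither gene's groups overlapped. Il13ra1, a receptor chain for interleukin 13, fell (-0.72 ± 0.19, adjusted p = 0.0116, lost without the block or without tumour 6), as did Tgm2, a transglutaminase (-1.19 ± 0.27, adjusted p = 0.00427). Arg1, the arginase often used as a marker of this state, was at 28.6, 13.8, 121, 11 and 3.18 CPM and 102, 6.89, 8.39, 14.1 and 15.3 CPM. It was high in 1 library of each group and did not pass (-0.30 ± 0.74, adjusted p = 0.801). Socs3 (-0.09 ± 0.39, adjusted p = 0.887) and the chemokine Ccl22 (-1.40 ± 0.62, adjusted p = 0.11) did not pass either.

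MHC class II separated the gates unevenly. H2-Aa, the alpha chain of I-A, was at 533, 6589.5, 2058, 5296 and 5461 CPM in CD206pos and 20.2, 7874, 2778, 391 and 335 CPM in CD206neg. The group difference did not pass (1.40 ± 0.90, adjusted p = 0.272, passed without tumour 8). H2-Ab1, its beta chain, was at 661, 6465, 2386, 5868 and 5711 CPM and 53.7, 9864, 3932, 562 and 534 CPM (0.98 ± 0.84, adjusted p = 0.419). Cd74, the invariant chain, was at 6177, 27956, 14710.3, 25619.6 and 28657 CPM and 1378, 46739, 18006, 6839 and 7686 CPM (0.52 ± 0.57, adjusted p = 0.538). In each of these genes the CD206neg libraries of tumours 6 and 8, the ones with MHCII-high column names, were the highest of their group and exceeded the CD206pos library of the same tumour. H2-Eb1, the I-E beta chain, was at 34.9, 217, 65.4, 229 and 103 CPM and 10.6, 122, 70.8, 10.2 and 8.91 CPM. It passed narrowly (1.58 ± 0.55, adjusted p = 0.0465, lost without the block, without tumour 5, 10 or 11 or without CD206pos of tumour 6, 2.27 without tumour 8). Ctss, the protease that trims the invariant chain, fell, from 7081 to 15597 CPM in CD206neg to 3140.3 to 5372 CPM in CD206pos (-1.68 ± 0.34, adjusted p = 0.00194). Of the class II presentation genes, 1 of 12 tested members rose and 1 fell, with a median log2 fold change of 0.48. With the CD206neg libraries of tumours 6 and 8 left out, 8 rose and 1 fell, with a median of 1.45. H2-Aa, H2-Ab1, H2-Ea and Cd74 passed with voom and not with DESeq2. None rose with no tumour block, without the CD206neg library of tumour 5 or without tumour 5, 10 or 11, and 3 rose without tumour 6 or without tumour 8. The gate list, which holds the same genes beside Mrc1, Adgre1 and Ptprc, had 2 of 7 members that rose, 5 without those 2 libraries, and 1 with no tumour block, without the CD206neg library of tumour 5, or without tumour 5, 10 or 11.

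**Figure D4:**
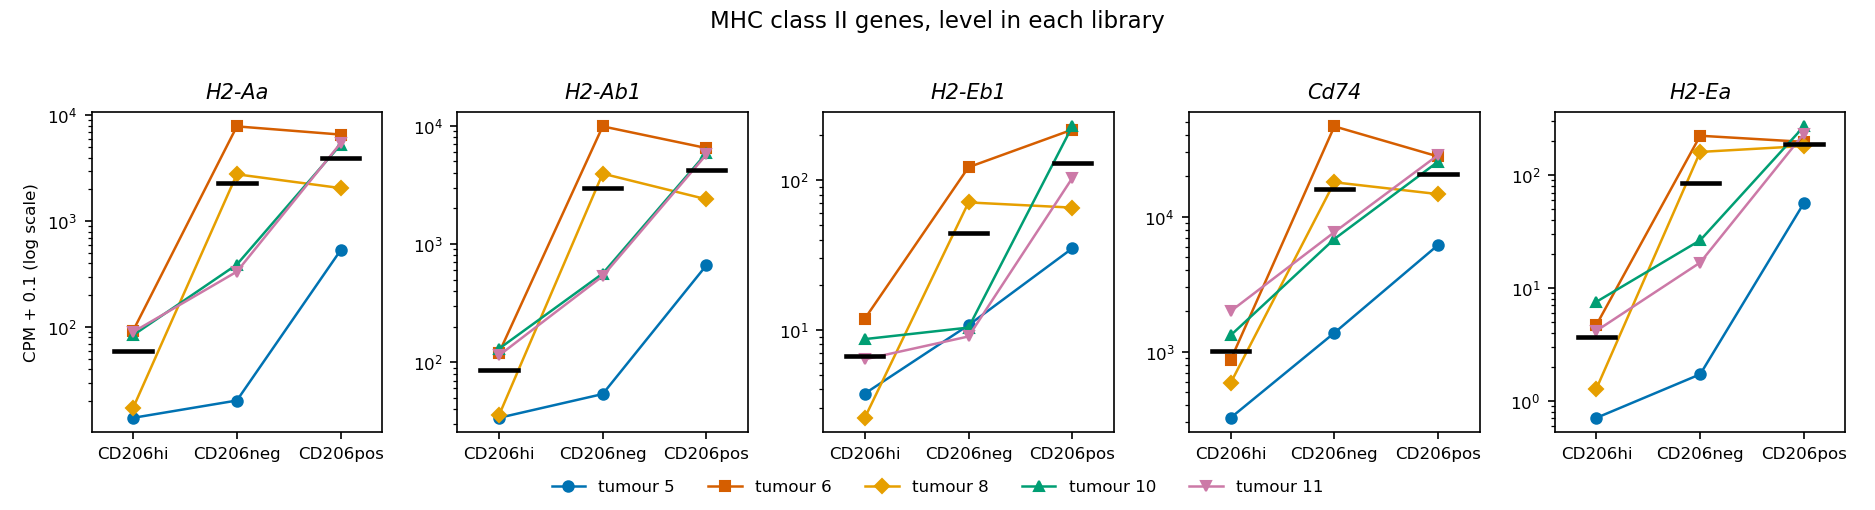
CPM + 0.1 (vertical axes, log scale) of 5 MHC class II genes in CD206hi, CD206neg and CD206pos libraries, with 1 line for each tumour and a black bar at the group mean. In CD206neg, tumours 6 and 8 lie at the level of CD206pos for H2-Aa (7874 and 2778 CPM), while tumours 5, 10 and 11 lie lower (20.2 to 391 CPM).

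The difference between the populations was tested against that split. It differed between tumours 6 and 8 and tumours 5, 10 and 11 for 3 of 11052 genes (0.0271%), all of them MHC class II chains: H2-Ea, the I-E alpha chain, H2-Aa and H2-Ab1. The log2 fold change of H2-Aa was -0.71 ± 0.42 in tumours 6 and 8 and 4.01 ± 0.39 in the other 3, a difference of -4.72 ± 0.58, adjusted p = 0.00521. For H2-Ea, at 56.5, 197, 181, 270.1 and 233 CPM in CD206pos and 1.62, 223, 160.3, 26.4 and 16.7 CPM in CD206neg, these were -0.36 ± 0.35 and 3.88 ± 0.34 (difference -4.23 ± 0.49, adjusted p = 0.00521). For H2-Ab1 they were -1.03 ± 0.43 and 3.35 ± 0.38 (difference -4.38 ± 0.58, adjusted p = 0.00867). H2-Eb1 and Cd74 had differences of the same sign that did not pass (-3.19 ± 0.53, adjusted p = 0.0848, and -2.83 ± 0.68, adjusted p = 0.809). None of the 3 genes passed with no tumour block, without tumour 6, 8 or 11, or without the CD206pos library of tumour 6 or of tumour 8. The split of tumours follows the column names and coincides with the animal, so the gate and the tumour cannot be told apart for it. Against CD206hi, whose gate is also MHCII-low, 8 of the 12 class II genes were higher in CD206pos, among them H2-Aa (5.87 ± 0.91, adjusted p = 0.00316, lost without the block) and Cd74 (4.25 ± 0.60, adjusted p = 0.00172, lost without the block).

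Promoters of H2-Aa and H2-Eb1 are shown for the 250 bases before the RefSeq start, 5′ to 3′, because they hold the motif given next. Between CD206pos and CD206neg, H2-Aa did not pass and H2-Eb1 passed narrowly. The capitals mark CTGATTGG, the core of the Y box, an element of class II promoters bound by NF-Y. It begins 51 bases before the start of H2-Aa (chr17:34287824-34288073, minus strand) and 62 bases before that of H2-Eb1 (chr17:34305617-34305866, plus strand), and 4.10% of the 32851 promoters hold it on either strand. Of the 5 named class II genes, 3 had a promoter sequence, and 2 of these hold the motif.
H2-Aa: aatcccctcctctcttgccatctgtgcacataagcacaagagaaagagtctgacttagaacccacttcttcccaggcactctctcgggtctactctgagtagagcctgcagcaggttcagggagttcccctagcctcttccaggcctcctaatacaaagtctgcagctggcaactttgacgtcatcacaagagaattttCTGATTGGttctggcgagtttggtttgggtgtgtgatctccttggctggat
H2-Eb1: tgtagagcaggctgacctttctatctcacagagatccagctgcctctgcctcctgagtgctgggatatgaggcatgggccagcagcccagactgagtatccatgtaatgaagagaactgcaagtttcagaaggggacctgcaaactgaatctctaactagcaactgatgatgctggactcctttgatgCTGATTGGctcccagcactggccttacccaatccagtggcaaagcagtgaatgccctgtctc

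Class I presentation genes mostly did not pass: of 16 tested members 1 rose, Nlrc5, the class I coactivator (1.22 ± 0.39, adjusted p = 0.0325, lost without tumour 5, 6, 10 or 11), and 0 fell, with a median log2 fold change of -0.26. B2m (4083 to 7359.8 and 4169 to 8451 CPM, -0.36 ± 0.27), H2-K1 (-0.22 ± 0.23) and H2-D1 (-0.38 ± 0.29) did not pass. The count was 2 rising without the CD206neg libraries of tumours 6 and 8 or without tumour 8, 2 falling without tumour 5, and 0 without tumour 6, 10 or 11.

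Among T cell costimulation and checkpoint ligands, 7 of 18 tested members rose and 5 fell, with a median log2 fold change of 0.23. Cd200r1, an inhibitory receptor, was at 67, 21.1, 35.3, 23.6 and 33.1 CPM and 8.80, 0.927, 7.98, 2.89 and 4.02 CPM (2.78 ± 0.24, adjusted p = 8.13e-07). Il10, a regulatory cytokine, was at 549, 557, 272, 459 and 299 CPM and 67.1, 126, 121, 64.9 and 50.6 CPM (2.07 ± 0.30, adjusted p = 1.19e-04). Cd80, a ligand of CD28, rose (1.28 ± 0.22, adjusted p = 6.01e-04). Their groups did not overlap. In the other direction, Nt5e (CD73, which makes adenosine) was at 11.2, 0.954, 11.8, 0.121 and 1.80 CPM and 145, 14.7, 20.1, 26.8 and 16.6 CPM (-3.38 ± 0.57, adjusted p = 4.58e-04). Havcr2 (TIM-3) fell (-2.19 ± 0.33, adjusted p = 1.67e-04) and Lgals9, its galectin ligand, did so as well (-1.13 ± 0.20, adjusted p = 8.18e-04). Vsir (0.05 ± 0.16) and Tnfsf9 (0.41 ± 0.21) did not pass.

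More CC chemokines rose than fell. Ccl8 was at 5932, 3152, 1542, 2815 and 7720.0 CPM in CD206pos and 18.5, 22, 34.5, 50.8 and 116 CPM in CD206neg (6.34 ± 0.49, adjusted p = 2.66e-07). Ccl6 was at 7527, 9959, 2463, 6794 and 8761 CPM and 269, 260.3, 173, 286 and 199 CPM (4.5 ± 0.40, adjusted p = 1.0e-06). Neither overlapped. Of the CC chemokines, 7 of 13 tested members rose and 1 fell, with a median log2 fold change of 1.81, and each of the 7 that rose lay without overlap above CD206neg. Beside Ccl24, Ccl8 and Ccl6 these were 4 genes named after their values were seen. They were the CCR2 ligands Ccl2 (3.35 ± 0.40, adjusted p = 1.95e-05), Ccl7 (4.02 ± 0.42, adjusted p = 5.55e-06) and Ccl12 (1.81 ± 0.30, adjusted p = 3.83e-04) and the CCR1 ligand Ccl9 (2.66 ± 0.31, adjusted p = 1.85e-05). Ccl5 fell (-1.47 ± 0.43, adjusted p = 0.0204, lost without the block, without tumour 5 or 8 or without CD206pos of tumour 6), while Ccl3 (0.12 ± 0.26, adjusted p = 0.777) and Ccl4 (-0.41 ± 0.26, adjusted p = 0.28) did not pass. Of the CXC chemokines, 4 of 11 tested members rose and 3 fell, with a median log2 fold change of 0.76. Pf4, the neutrophil attractant Cxcl3 (0.76 ± 0.19, adjusted p = 0.0092, lost without the block or without tumour 6) and the B cell attractant Cxcl13 (3.62 ± 1.15, adjusted p = 0.0299, lost without tumour 5, 6, 10 or 11, 6.23 without CD206neg of tumour 8) were among those that rose. Cxcl14, Cxcl16 and Cxcl10, an interferon-induced attractant of T cells (-0.95 ± 0.20, adjusted p = 0.00232, lost without the block), fell. Cxcl2, at 4823 to 12226 and 2885 to 7401 CPM, did not pass (0.79 ± 0.31, adjusted p = 0.0723, passed without tumour 8 or without CD206neg of tumour 6). With no tumour block 2 rose and 2 fell, and without tumour 6, 1 rose and 3 fell.

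Chemokine and chemoattractant receptors moved in both directions: 5 of 13 tested members rose and 3 fell, with a median log2 fold change of 0.57. Ccr2 and the formyl peptide receptors Fpr1 (2.72 ± 0.45, adjusted p = 4.04e-04) and Fpr2 (3.51 ± 0.49, adjusted p = 9.13e-05) rose. Cx3cr1, Ccr6 (-2.57 ± 0.60, adjusted p = 0.00513, lost without tumour 6) and Ccr7 (-2.07 ± 0.68, adjusted p = 0.0341, lost without the block, without tumour 6, 8 or 10 or without CD206neg of tumour 5, -2.78 without CD206pos of tumour 11) fell, and Ccr1 (0.14 ± 0.23) and Ccrl2 (-0.41 ± 0.27) did not pass. With no tumour block 3 rose and 1 fell, and 4 rose and 1 fell without tumour 6 or without the CD206neg libraries of tumours 6 and 8. Among monocyte genes, 10 of 20 tested members rose and 2 fell, with a median log2 fold change of 0.73. The median was -0.01 without tumour 6 and 0.07 with CD206hi left out of the fit, with 9 that rose and 2 that fell in both. Ifitm6, an interferon-inducible transmembrane protein of monocytes, was at 19, 64.4, 12, 55.1 and 45.8 CPM and 1.01, 0.132, 0.102, 0.111 and 0.377 CPM (6.50 ± 0.44, adjusted p = 7.41e-08, 7.57 without tumour 5). Smpdl3a, a phosphodiesterase, rose (1.54 ± 0.19, adjusted p = 2.41e-05). Itgal, the LFA-1 alpha chain, and Gngt2 fell (-1.79 ± 0.28, adjusted p = 2.78e-04, and -1.08 ± 0.22, adjusted p = 0.00234, lost without the block). Ms4a4c (-0.52 ± 0.21, passed without CD206pos of tumour 6 or without CD206neg of tumour 10), Nr4a1 (-0.70 ± 0.40) and Mgst1 (0.02 ± 0.21) did not pass, and Ly6c2, the classical monocyte marker, was too low to be tested (0 to 1.27 CPM in CD206pos and 0 to 0.202 CPM in CD206neg).

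The complement genes that passed were all higher in CD206pos. Of the complement genes, 8 of 20 tested members rose and 0 fell, with a median log2 fold change of 0.61. Cfp (properdin, which stabilises the alternative pathway convertase) was at 729, 762, 321, 1053 and 1191 CPM and 188, 91.3, 77, 144 and 83.1 CPM (2.47 ± 0.30, adjusted p = 2.41e-05). C4b, of the classical pathway, rose (3.0 ± 0.38, adjusted p = 3.56e-05). The chains of C1q, which starts the classical pathway, did not pass: C1qa (-0.73 ± 0.30, adjusted p = 0.091), C1qb (-0.50 ± 0.30, adjusted p = 0.236) and C1qc (-0.72 ± 0.29, adjusted p = 0.0816, passed without CD206pos of tumour 5). C4b was at 714 ± 211 CPM (SD, n = 5) in CD34-positive fibroblasts sorted from the same tumours, whose part in its rise was not tested. In coagulation and fibrinolysis, 10 of 19 tested members rose and 3 fell, with a median log2 fold change of 0.99. F10 (factor X) was at 9.13, 42.7, 17, 63.7 and 19.1 CPM and 5.36, 1.06, 0.717, 0.778 and 1.51 CPM (3.89 ± 0.52, adjusted p = 6.08e-05, 4.68 without tumour 5). Thbd (thrombomodulin, an anticoagulant receptor) was at 169.6, 25.1, 17.6, 18.5 and 47 CPM and 6.07, 3.84, 2.46, 4.45 and 2.26 CPM (3.18 ± 0.43, adjusted p = 6.61e-05). Procr, the protein C receptor, was lower, at 35.1, 67.1, 38.8, 28.1 and 12.8 CPM and 163, 194, 127, 116 and 65 CPM (-2.17 ± 0.22, adjusted p = 3.93e-06). The plasminogen activators Plat (-2.3 ± 0.46, adjusted p = 0.00184) and Plau (-0.63 ± 0.13, adjusted p = 0.00233) fell. Plat was higher in CD34-positive fibroblasts (1256 ± 112 CPM), and the part of such cells in it was not tested. Pros1, protein S, rose (1.22 ± 0.23, adjusted p = 0.00137), and Plaur (-0.61 ± 0.23, passed without CD206neg of tumour 5), Tfpi (-0.10 ± 0.16) and Thbs1 (0.03 ± 0.26) did not pass.

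Growth factors changed in both directions: 5 of 24 tested members rose and 7 fell, with a median log2 fold change of -0.10. Hbegf, a ligand of the EGF receptor, was at 401, 574, 43.6, 342 and 313 CPM and 23.8, 39.6, 7.27, 24.9 and 20.2 CPM (3.47 ± 0.33, adjusted p = 2.08e-06). Bmp2 was at 140.2, 14.3, 23.4, 20.4 and 49.1 CPM and 1.11, 0.662, 0.102, 0.667 and 2.64 CPM (5.38 ± 0.44, adjusted p = 4.85e-07, 4.68 without tumour 5). Vegfa was at 81.1, 58.8, 82.6, 81.7 and 35.1 CPM and 201, 147, 88.5, 147 and 90.8 CPM and fell (-1.22 ± 0.25, adjusted p = 0.00254), as did Csf1, the macrophage growth factor (-2.19 ± 0.30, adjusted p = 7.12e-05), and Sema4d, a semaphorin that binds plexin B1 (-2.31 ± 0.27, adjusted p = 2.04e-05). Grn (-0.44 ± 0.26), Tgfb1 (-0.81 ± 0.34, passed without tumour 5 or without CD206neg of tumour 8) and Areg (0.77 ± 0.37, passed without tumour 8) did not pass.

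Cd34, a sialomucin of progenitors, endothelium and fibroblasts, had the largest fall, at 0.623, 2.22, 1.5, 0.362 and 0.425 CPM in CD206pos and 39.4, 17.9, 12.7, 19.7 and 7.66 CPM in CD206neg (-4.48 ± 0.50, adjusted p = 1.18e-05). Cd34 was at 1603 ± 247 CPM in CD34-positive fibroblasts and 1283 ± 324 CPM in endothelial cells (SD, n = 5 each), and the part of such cells in its difference was not tested. The summed fibroblast and mural markers were 29.8 to 49.9 CPM in CD206pos and 17.6 to 69 CPM in CD206neg, and those of endothelial cells 12.5 to 26.1 CPM in CD206pos and 11 to 14.6 CPM in CD206neg. Cxcl14, a chemokine also made by fibroblasts (CAF1, CD34-negative, 1239 ± 345 CPM), was at 10.7, 14.9, 17.7, 5.31 and 4.14 CPM and 191, 64.1, 68.3, 74.4 and 56.7 CPM (-3.33 ± 0.36, adjusted p = 8.44e-06). Il12b, the shared p40 chain of interleukins 12 and 23, was at 33.7, 11.8, 38.1, 3.74 and 3.93 CPM and 147, 124, 257, 99.9 and 102 CPM (-3.47 ± 0.62, adjusted p = 7.74e-04, -4.16 without CD206pos of tumour 5). None of these 3 genes overlapped between the groups.

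The other large falls held metabolic, receptor and lysosomal genes. Spp1 (osteopontin, a secreted matrix protein) was at 1596, 1092, 4373, 269 and 289.8 CPM and 11439.8, 4412, 5729, 2703 and 7916 CPM (-3.08 ± 0.52, adjusted p = 4.86e-04, -2.44 without CD206neg of tumour 11), with an overlap through tumour 8 of CD206pos. Gpnmb, a lysosomal membrane glycoprotein, was at 0, 2.86, 1.85, 4.58 and 2.02 CPM and 77.9, 4.64, 2.15, 10.5 and 60.5 CPM, high in tumours 5 and 11 of CD206neg (-3.58 ± 1.10, adjusted p = 0.0255, lost without tumour 5 or 11 or without CD206pos of tumour 6, -4.29 without CD206neg of tumour 8, -4.55 without CD206pos of tumour 10). Htr2b, a serotonin receptor (-3.43 ± 0.55, adjusted p = 3.29e-04), Rims2, a scaffold of vesicle release (-3.34 ± 0.35, adjusted p = 6.84e-06), Haao, an enzyme of kynurenine breakdown (-2.95 ± 0.54, adjusted p = 8.76e-04, -2.36 without tumour 8), Fam189a2 (-3.61 ± 0.47, adjusted p = 4.65e-05, -4.23 without tumour 8) and Lrrc3 (-3.10 ± 0.39, adjusted p = 3.23e-05) were also among the 12 largest falls, with Nt5e. Kmo, an enzyme upstream of Haao in the same pathway, was higher in CD206pos, at 29.3, 12.6, 22.3, 11 and 27.1 CPM and 0, 1.06, 1.23, 0.556 and 0.502 CPM (4.71 ± 0.54, adjusted p = 1.39e-05, 4.06 without tumour 5).

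**Figure D5:**
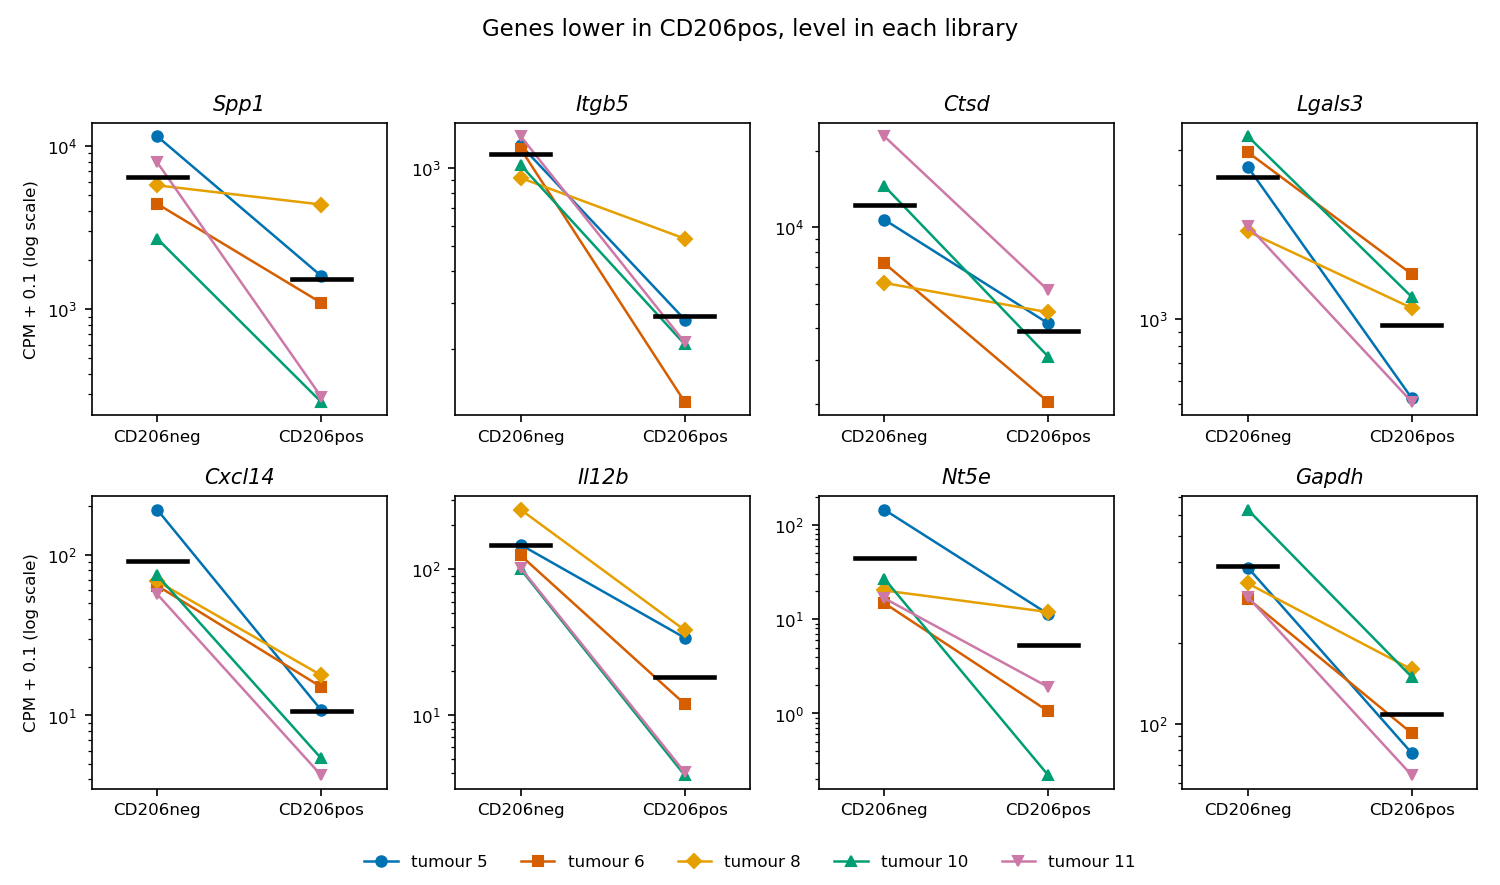
CPM + 0.1 (vertical axes, log scale) of 8 genes in CD206neg and CD206pos libraries, with 1 line for each of the 5 tumours and a black bar at the group mean. All lines fall, from a mean of 1139 to 268 CPM for Itgb5 and of 90.8 to 10.6 CPM for Cxcl14, and tumour 8 has the smallest fall in Spp1.

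More lysosomal and lipid-handling genes fell than rose. Of the lysosomal proteases and their inhibitors, 2 of 18 tested members rose and 9 fell, with a median log2 fold change of -0.95. The aspartic protease Ctsd was at 4174, 2043, 4622, 3085 and 5636 CPM and 10729, 7224, 6036, 14573 and 22890.5 CPM (-1.85 ± 0.36, adjusted p = 0.00159), with Ctsz (-1.74 ± 0.28, adjusted p = 3.29e-04), Ctse (-1.68 ± 0.22, adjusted p = 5.30e-05) and Ctss also among those that fell. Ctsl went the other way, at 846, 597, 401, 385 and 723 CPM and 509, 155, 178, 214 and 241 CPM (1.03 ± 0.22, adjusted p = 0.00291, lost without the block), with Ctso (0.54 ± 0.15, adjusted p = 0.0134, lost without the block or without tumour 5 or 11), while Ctsb, at 7397 to 18416 and 12288 to 24499.6 CPM, did not pass (-0.81 ± 0.35, adjusted p = 0.108, passed without CD206pos of tumour 5). Without the block 0 rose and 5 fell, and without tumour 11, 1 rose and 5 fell. In the list of lipid-associated macrophage genes, 5 of 29 tested members rose and 13 fell, with a median log2 fold change of -0.57. Lgals3, galectin-3, was at 523, 1443, 1094, 1198 and 507 CPM and 3475, 3919.8, 2049, 4465 and 2149.7 CPM (-2.04 ± 0.29, adjusted p = 9.14e-05). Itgax, which encodes CD11c, was at 15, 14.9, 73.5, 38.2 and 14.9 CPM and 146, 90.5, 119.9, 109.9 and 64.4 CPM (-2.25 ± 0.33, adjusted p = 1.5e-04). The list did not move as one: Pltp, a phospholipid transfer protein, was at 1555, 813, 828, 948 and 2301 CPM and 140.3, 95.6, 130.0, 109 and 235 CPM (2.92 ± 0.25, adjusted p = 7.28e-07), the oxysterol receptor Nr1h3 rose (0.69 ± 0.19, adjusted p = 0.0142, lost without tumour 8 or 10), and Apoe, at 20634 to 37353 and 27413 to 49895 CPM, did not pass (-0.57 ± 0.33, adjusted p = 0.226). Without the block 2 rose and 7 fell, and without the CD206neg libraries of tumours 6 and 8, 2 rose and 12 fell.

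Matrix proteases moved in both directions. Mmp12 (macrophage elastase) was at 279, 164, 225, 171 and 117 CPM and 4077, 888, 326, 1036 and 243 CPM (-2.14 ± 0.47, adjusted p = 0.00358, -2.75 without CD206pos of tumour 11). Mmp14, a membrane-bound collagenase, was at 149, 72.2, 349.6, 123 and 70.3 CPM and 558, 393, 441, 477 and 416 CPM (-2.13 ± 0.33, adjusted p = 2.40e-04). Mmp13 fell (-1.84 ± 0.42, adjusted p = 0.00444, lost without the block). Mmp19 rose, at 231, 144, 47.2, 109 and 143 CPM and 36, 19.9, 12.1, 20.2 and 9.04 CPM (2.51 ± 0.29, adjusted p = 1.39e-05), with the gelatinase Mmp9 (3.63 ± 0.62, adjusted p = 5.26e-04, 4.41 without CD206neg of tumour 10, 3.02 without CD206neg of tumour 11) and the inhibitor Timp1, at 107, 149, 21.1, 141 and 66.1 CPM and 7.59, 4.90, 0.512, 1.33 and 2.13 CPM (4.84 ± 0.29, adjusted p = 3.75e-08). Timp1 was at 1344 ± 361 CPM in CD34-negative fibroblasts, whose part in it was not tested. Over the list, 4 of 17 tested members rose and 7 fell, with a median log2 fold change of 0.05, and 4 rose and 3 fell with no tumour block, or 4 and 4 without tumour 10. The median was -0.46 without tumour 6. Among leukocyte integrins and adhesion molecules, 2 of 21 tested members rose and 8 fell, with a median log2 fold change of -0.40. Itgb5, of the vitronectin receptor, was at 259.6, 124, 534, 208 and 212 CPM and 1229, 1188, 918, 1029.6 and 1331 CPM (-2.54 ± 0.35, adjusted p = 8.59e-05). F11r, junctional adhesion molecule A, fell (-2.31 ± 0.29, adjusted p = 3.32e-05). Cd44 rose (0.67 ± 0.23, adjusted p = 0.0406, lost without the block, without tumour 6, 10 or 11 or without CD206neg of tumour 5), and Itgb1 (0.03 ± 0.15) and Itgb2 (-0.04 ± 0.17) did not pass. Without tumour 11, 0 rose and 6 fell.

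Receptors and bridges for apoptotic cells had 5 of 22 tested members that rose (22.7%) and 4 that fell (18.2%), with a median log2 fold change of 0.03. The shares of all genes tested were 13.4% and 12%, and whether the list differs from them was not tested. Timd4, Gas6 and Pros1 rose, whereas Axl, a receptor for Gas6 and Pros1, was at 194, 94.9, 301, 107 and 139.9 CPM and 809.6, 611, 479, 430.1 and 550.3 CPM (-2.10 ± 0.29, adjusted p = 7.56e-05). Cd300lf, which binds phosphatidylserine, fell (-0.74 ± 0.17, adjusted p = 0.00496). Of the haem and iron genes, 8 of 23 tested members rose and 5 fell, with a median log2 fold change of 0.16. The ferrireductase gene Steap4 was at 34.2, 10.3, 14.3, 18.7 and 57.1 CPM and 0, 0.530, 0.614, 0.334 and 1.38 CPM (5.39 ± 0.43, adjusted p = 3.59e-07, 4.80 without tumour 5), and Steap3 rose with it (1.55 ± 0.20, adjusted p = 4.29e-05). Slc11a1, a phagosomal metal transporter (-0.63 ± 0.18, adjusted p = 0.0147, lost without tumour 10), Trf, transferrin (-0.96 ± 0.28, adjusted p = 0.0216, lost without the block or without tumour 6, 10 or 11), and Flvcr1, a haem exporter (-0.67 ± 0.21, adjusted p = 0.0261, lost without the block or without tumour 5, 6, 10 or 11), fell. The ferritin genes Fth1 (-0.75 ± 0.29, adjusted p = 0.0732) and Ftl1 (-0.41 ± 0.31, adjusted p = 0.35) did not pass. Without the block 6 rose and 1 fell, and 7 rose with 1 fall without tumour 6 or 11 and with 0 without tumour 10.

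Genes of glycolysis and of the response to low oxygen were mostly lower in CD206pos. In the list of hypoxia and glycolysis genes, 2 of 32 tested members rose and 21 fell, with a median log2 fold change of -1.26. Gapdh was at 77.4, 91.9, 159, 149 and 64 CPM and 381, 292, 332, 625 and 296 CPM (-2.11 ± 0.25, adjusted p = 2.01e-05). Aldoa, aldolase A, was at 643, 508, 1044, 609 and 353 CPM and 2557, 1619.5, 1704, 2911 and 1499.6 CPM (-2.0 ± 0.26, adjusted p = 5.46e-05). Pkm, pyruvate kinase, was at 589, 270.3, 1055, 523 and 306 CPM and 2845, 1126, 1586, 2272 and 1617 CPM (-2.17 ± 0.30, adjusted p = 7.66e-05). For each of these the groups did not overlap. Pfkfb3, which makes the activator of phosphofructokinase, rose (0.94 ± 0.23, adjusted p = 0.00629), as did Ndrg1 (0.71 ± 0.22, adjusted p = 0.025, lost without the block or without tumour 6, 8, 10 or 11), and the hypoxia-induced Hilpda (-0.33 ± 0.20, adjusted p = 0.241, passed without tumour 6), Bnip3l (-0.02 ± 0.14, adjusted p = 0.917) and Hk2 (0.39 ± 0.25, adjusted p = 0.285, passed without tumour 8) did not pass.

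Most cell cycle genes were lower too: 0 of 30 tested members rose and 25 fell, with a median log2 fold change of -1.07. Without the block 0 rose and 4 fell. Aurka, a mitotic kinase, was at 3.84, 1.91, 17.9, 5.55 and 4.03 CPM and 18.3, 6.89, 21.7, 18 and 11 CPM (-1.60 ± 0.29, adjusted p = 8.83e-04). Cdc20 was at 4.36, 5.40, 23.5, 8.68 and 6.79 CPM and 20.8, 6.76, 29.9, 22.8 and 18.3 CPM (-1.37 ± 0.26, adjusted p = 0.00108, lost without the block). Hmgb2 fell (-1.15 ± 0.18, adjusted p = 2.12e-04). The groups overlapped for both Aurka and Cdc20, and tumour 8 was the highest library of each group. Mki67 (19.7, 40.4, 83.7, 59.8 and 21.9 CPM and 55.1, 23.8, 92.3, 30.2 and 32.3 CPM, -0.25 ± 0.27, adjusted p = 0.532), Mcm4 (-0.42 ± 0.18, passed without tumour 8) and Tk1 (-0.60 ± 0.22, passed without tumour 10 or without CD206neg of tumour 6) did not pass.

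Inflammatory mediators moved in both directions: 7 of 21 tested members rose and 4 fell, with a median log2 fold change of -0.03. Lif, of the interleukin 6 family, was at 70.9, 31.6, 19.6, 63.8 and 21.1 CPM and 8.90, 5.03, 6.14, 4.45 and 3.77 CPM (2.54 ± 0.29, adjusted p = 1.19e-05). Il18 rose (1.11 ± 0.23, adjusted p = 0.00216). Il1a was at 2000.1, 892, 2006, 529 and 1369 CPM and 3480.1, 3438, 4202, 3920.4 and 3776 CPM (-1.86 ± 0.32, adjusted p = 5.06e-04). Il23a, the partner of p40 in interleukin 23, fell with Il12b (-2.40 ± 0.52, adjusted p = 0.00349, lost without the block). Il1b, at 5884, 9688, 8613, 7532 and 8124 CPM and 7433, 18826, 14558, 14108 and 13648 CPM, was lower in CD206pos in 5 of 5 tumours and did not pass (-0.96 ± 0.36, adjusted p = 0.0605, passed without CD206neg of tumour 5 or 8). Nor did Ptgs2 (-0.05 ± 0.24), Nlrp3 (-0.01 ± 0.17) and Icam1 (-0.10 ± 0.20). Of the Toll-like and cytosolic receptors, 5 of 25 tested members rose (20%) and 3 fell (12%), with a median log2 fold change of -0.01. Among all genes tested 13.4% rose and 12% fell, and a difference of the list from these shares was not tested. Tlr8 (1.3 ± 0.20, adjusted p = 2.26e-04), Tlr5 (3.76 ± 0.47, adjusted p = 3.56e-05) and Casp4 (1.49 ± 0.21, adjusted p = 1.11e-04) rose. Tlr2 (-1.31 ± 0.29, adjusted p = 0.00389) and Tlr12 (-2.24 ± 0.46, adjusted p = 0.0021) fell. The lipopolysaccharide co-receptor gene Cd14 (-0.77 ± 0.34) did not pass. Prostanoid and leukotriene genes had 8 of 19 tested members that rose and 4 that fell (median 0.22). Ltc4s, which makes leukotriene C4, was at 127, 109, 103, 146 and 93.9 CPM and 19.6, 9.27, 26.1, 23.4 and 24.4 CPM (2.32 ± 0.25, adjusted p = 8.97e-06). Alox5, the first enzyme of that route, rose (1.08 ± 0.18, adjusted p = 4.11e-04, lost without the block), and Ptgs1 (-1.11 ± 0.35, adjusted p = 0.0305, lost without the block or without tumour 6, 10 or 11) and Ptger4 (-0.88 ± 0.24, adjusted p = 0.0131, lost without the block or without tumour 6 or 10) fell. The count was 5 rising and 0 falling with no tumour block, 5 and 2 without tumour 6, 6 and 0 without tumour 10, and 6 and 1 without tumour 11.

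The interferon-stimulated genes had 6 of 30 tested members that rose (20%) and 5 that fell (16.7%), with a median log2 fold change of -0.08. The shares of all genes tested were 13.4% and 12%, and whether the list differs from them was not tested. Oas2 (3.0 ± 0.44, adjusted p = 1.51e-04), Ddx58 (1.59 ± 0.20, adjusted p = 4.06e-05) and Ifi204 (1.2 ± 0.23, adjusted p = 0.00144) rose. Gbp3 (-1.05 ± 0.18, adjusted p = 6.47e-04), Gbp5 (-1.57 ± 0.28, adjusted p = 7.73e-04) and Ifit2 (-1.07 ± 0.29, adjusted p = 0.0134, lost without the block or without tumour 6 or 10) fell. Bst2 (-0.25 ± 0.16), Irf1 (0.45 ± 0.22, passed without tumour 6) and Oas1a (0.41 ± 0.24, passed without tumour 8) did not pass. The falls numbered 2 with no tumour block, without tumour 6, or without the CD206neg libraries of tumours 6 and 8. Among Fc receptors, 2 of 9 tested members rose and 0 fell, with a median log2 fold change of 0.28. Fcgr2b, the inhibitory receptor for IgG, rose with Fcgrt (0.86 ± 0.21, adjusted p = 0.00704, lost without tumour 11). Fcgr3 (0.28 ± 0.18, adjusted p = 0.281) and Fcer1g (-0.23 ± 0.22, adjusted p = 0.468) did not pass, and 1 rose without tumour 11.

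Of the macrophage transcription factors, 14 of 34 tested members rose and 5 fell, with a median log2 fold change of 0.53. Id3, an inhibitor of basic helix-loop-helix factors, was at 176, 103, 105, 208 and 101 CPM and 34.5, 18.5, 36.9, 24.8 and 20.1 CPM (2.14 ± 0.21, adjusted p = 2.73e-06) without overlap. Irf4 and Klf4, given above, were members of the list as well. Bhlhe41 (-1.33 ± 0.30, adjusted p = 0.00474), Irf8 (-0.85 ± 0.20, adjusted p = 0.00541) and Irf5 (-0.76 ± 0.18, adjusted p = 0.00574) fell. Cebpb (0.45 ± 0.24, adjusted p = 0.18), Id2 (0.39 ± 0.24) and Nfe2l2 (-0.36 ± 0.18) did not pass. Immediate early and stress genes, which respond to tissue digestion as well as to signals in the animal, had 8 of 30 tested members that rose and 0 that fell (median 0.23), and 5 that rose with no tumour block or without tumour 11. Ier3 was at 2874, 3163, 1106, 2189.9 and 3355 CPM and 376, 627, 363, 652 and 723 CPM (1.98 ± 0.29, adjusted p = 1.26e-04). Nr4a2 rose (1.49 ± 0.20, adjusted p = 6.31e-05). Junb (-0.17 ± 0.34, adjusted p = 0.744), Zfp36 (0.68 ± 0.37, adjusted p = 0.198, passed without tumour 6) and Dusp1 (0.84 ± 0.33, adjusted p = 0.07, passed without tumour 6) did not pass. The part of digestion in these values was not tested.

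Markers of other cells were looked up in the same libraries. Dendritic cell markers summed to 84.5 to 293 CPM in CD206pos and 26.4 to 68.7 CPM in CD206neg. Without Cd209a, which is also a macrophage lectin, they summed to 58.4 to 95.8 CPM in CD206pos and 25.5 to 68.2 CPM in CD206neg. With and without Cd209a, the sum was higher in CD206pos in 5 of 5 tumours. Clec9a, which defines cross-presenting dendritic cells, had no count in any of the 10 libraries. Zbtb46 was at 0.463 to 7.78 and 0.303 to 1.06 CPM, and Xcr1 at 0.603 to 6.36 and 1.51 to 4.40 CPM. The dendritic cell gene Flt3 and the T cell genes Cd3e, Cd3d, Cd3g and Cd8a were not found among the genes of the deposited counts, so their levels are not known. Of the 9 tested members Cd209a, Kmo, Cd24a (0.82 ± 0.28, adjusted p = 0.0415, lost without the block, without tumour 5, 6, 8 or 11 or without CD206pos of tumour 10) and Zbtb46 (1.93 ± 0.67, adjusted p = 0.0447, lost without the block or without tumour 5, 6, 10 or 11) rose and Ccr7 fell, and 2 or 3 rose and at most 1 fell with no tumour block or without tumour 5, 6, 10 or 11. The B cell markers in the matrix summed to 23.8 to 32.7 CPM in CD206pos and 3.84 to 9.68 CPM in CD206neg. Without Bank1 they summed to 8.2 to 22.6 CPM in CD206pos and 3.03 to 5.0 CPM in CD206neg. Both sums were higher in CD206pos in 5 of 5 tumours. Both tested members, Bank1 (2.33 ± 0.39, adjusted p = 4.22e-04) and Cd79b (1.49 ± 0.25, adjusted p = 5.28e-04), rose. T and NK cell markers summed to 65 to 80.3 CPM in CD206pos and 43.7 to 128 CPM in CD206neg. Of 5 tested, Cd2 (22.5, 40, 7.52, 40 and 27.8 CPM and 0.506, 1.46, 1.74, 0.222 and 0.251 CPM, 4.66 ± 0.65, adjusted p = 8.37e-05, 5.73 without CD206neg of tumour 8) and Cd28 (1.94 ± 0.46, adjusted p = 0.00573, lost without tumour 11) rose and Il7r fell (-1.66 ± 0.25, adjusted p = 1.87e-04). The T cell kinase Lck was at 0 to 2.59 and 0.101 to 0.251 CPM. The part of such cells in the rises and falls above was not tested.

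Neutrophil markers summed to 350 to 606 CPM in CD206pos and 197 to 483 CPM in CD206neg, and CD206pos was higher in 5 of 5 tumours. Without Clec4e, also a member of the endocytic lectin list, they summed to 59.6 to 87.2 CPM in CD206pos and 78.9 to 148 CPM in CD206neg. CD206pos was then higher in 0 of 5 tumours. S100a8 was at 0 to 3.53 and 0.205 to 3.64 CPM. Of 6 tested, Mmp9 and Clec4e rose and Il1r2 fell (-2.10 ± 0.49, adjusted p = 0.00532). Markers of eosinophils, basophils and mast cells summed to 2.86 to 11 CPM in CD206pos and 1.74 to 225 CPM in CD206neg. The highest value belonged to the CD206neg library of tumour 5. There the mast cell protease genes Tpsb2, Cma1, Cpa3 and Mcpt4, named after their values were seen, were at 70.8, 67.2, 54.9 and 24.8 CPM. In the other 9 libraries Tpsb2 reached 2.11 CPM at most. Only 1 member of that list was tested and it did not pass, and without the CD206neg libraries of tumours 6 and 8, 2 members fell. Leaving out the CD206neg library of tumour 5 gave 2191 genes that differed. Luminal and myoepithelial markers summed to 88.8 to 1170.0 CPM in CD206pos and 53.1 to 1050.0 CPM in CD206neg, highest in tumour 6 in both groups. Of 16 tested 1 rose (Ehf, 1.74 ± 0.39, adjusted p = 0.00399, lost without the block) and 4 fell, among them Krt8 (7.58, 80.6, 15.5, 13.4 and 8.28 CPM and 44.4, 179.9, 3.17, 50.3 and 56.5 CPM, -1.84 ± 0.52, adjusted p = 0.0162, lost without the block or without tumour 5, 6, 10 or 11) and Cldn4 (-4.02 ± 0.74, adjusted p = 9.51e-04, -5.43 without tumour 6). The falls numbered 12 without tumour 8, 10 without the CD206neg libraries of tumours 6 and 8, and 1 with no tumour block, without the CD206neg library of tumour 5 or without tumour 5, 10 or 11. Of 11 tested fibroblast and mural markers, Tagln rose (1.62 ± 0.55, adjusted p = 0.041, lost without tumour 5, 6, 10 or 11 or without CD206pos of tumour 8) and Mcam fell (-1.74 ± 0.39, adjusted p = 0.00402). Of 5 endothelial markers, Eng rose (1.05 ± 0.36, adjusted p = 0.0416, lost without the block or without tumour 5, 8, 10 or 11) and Egfl7 fell (-2.74 ± 0.78, adjusted p = 0.0171, lost without tumour 8, 10 or 11, -3.96 without tumour 6).

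Fewer genes differed between CD206pos and CD206hi. The 2 comparisons share the CD206pos libraries, so their values are given side by side. At adjusted p under 0.05, 97 of 11052 genes (0.878%) differed, 91 of them (0.823%) higher in CD206pos and 6 (0.0543%) lower, and 21 with no tumour block. The number ran from 37 without tumour 6 to 171 without the CD206pos library of tumour 8. Mrc1 had means of 1206 ± 537, 67.8 ± 32.7 and 989.7 ± 301 CPM in CD206pos, CD206neg and CD206hi (SD, n = 5), and the difference from CD206hi did not pass (0.21 ± 0.22, adjusted p = 0.715). Ccl24 (0.82 ± 0.29, adjusted p = 0.23), Cd163 (0.23 ± 0.31, adjusted p = 0.789), Lyve1 (-1.09 ± 0.31, adjusted p = 0.133, passed without tumour 5), F13a1 (-0.58 ± 0.24, adjusted p = 0.306) and Ccl8 (-0.45 ± 0.40, adjusted p = 0.663) did not pass against CD206hi either. Retnla had means of 5245 ± 3642, 14.7 ± 14.2 and 521 ± 629 CPM, and its difference from CD206hi did not pass (3.32 ± 0.84, adjusted p = 0.0771, passed without tumour 5).

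A smaller set of named genes was higher in CD206pos than in both other populations. Ccr2 had means of 239 ± 66, 24.8 ± 17.6 and 81.6 ± 16.3 CPM, and its log2 fold change against CD206hi was 1.49 ± 0.31, adjusted p = 0.0304, lost without the block, without tumour 6, 10 or 11, without CD206pos of tumour 5 or without CD206hi of tumour 8. F10 was at 30.3, 1.88 and 1.62 CPM (4.33 ± 0.52, adjusted p = 5.07e-04) and Irf4 at 22.9, 1.53 and 8.46 CPM (1.65 ± 0.34, adjusted p = 0.0303, lost without the block, without tumour 6, 10 or 11 or without CD206hi of tumour 8). Ifitm6 was at 39.3, 0.347 and 11.8 CPM (1.80 ± 0.31, adjusted p = 0.00707, lost without the block or without tumour 6 or 10) and Timp1 at 96.8, 3.29 and 37.5 CPM (1.59 ± 0.24, adjusted p = 0.00209, lost without the block). Clec4e (1.13 ± 0.21, adjusted p = 0.0129, lost without the block or without tumour 6, 10 or 11), Mmp19 (1.32 ± 0.27, adjusted p = 0.0294, lost without the block, without tumour 5, 6 or 10, without CD206pos of tumour 11 or without CD206hi of tumour 8), Cxcl3 (0.98 ± 0.19, adjusted p = 0.0237, lost without the block, without tumour 6 or 10, without CD206pos of tumour 11 or without CD206hi of tumour 5 or 8) and the leukotriene B4 receptor gene Ltb4r1 (2.85 ± 0.63, adjusted p = 0.0432, lost without the block or without tumour 6, 8, 10 or 11, 3.71 without tumour 5) passed in both comparisons as well. Of these 9 genes, the call of F10 against CD206hi held with no tumour block and with each tumour or library left out, and the other 8 calls were lost with no tumour block. Il7r was lower than in CD206neg and higher than in CD206hi (1.65 ± 0.27, adjusted p = 0.00565, lost without the block or without tumour 6). Ch25h, an enzyme that makes 25-hydroxycholesterol, was at 101, 89 and 226 CPM and was lower than in CD206hi (-1.3 ± 0.24, adjusted p = 0.014, lost without the block, without tumour 6 or 10, without CD206pos of tumour 11 or without CD206hi of tumour 8). Spp1 (-0.90 ± 0.47, adjusted p = 0.434), Gapdh (-0.85 ± 0.24, adjusted p = 0.132) and Cd34 (0.75 ± 0.62, adjusted p = 0.635), which fell against CD206neg, did not pass against CD206hi.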

How the data were processed

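The authors deposited raw counts per Entrez gene for 30 libraries (14118 genes, none with fewer than 72 counts in all) and a table of normalised signal, which the deposited values show to be those counts divided by 1 size factor per library. Trimmomatic 0.36, HISAT2 2.0.4, SAMtools 1.3.1, DESeq2 1.26 and mm10 are named without roles in the submitters' processing notes. The sources used here do not give the counting tool, its strand setting or the annotation. Per the labels' protocols, sorted cells gave RNA that was amplified with SMARTseq v4, so that counts are not independent molecules.

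The counts of the 15 macrophage libraries were fitted with edgeR 4.0.16 (R 4.3.3; filterByExpr, TMM factors, quasi-likelihood test, population plus tumour), and p-values were adjusted by Benjamini-Hochberg over 11052 genes. Tumour was a block because each tumour came from 1 mouse, and deviations of libraries of 1 tumour from their group means correlated at 0.111 to 0.648. CD206pos was also contrasted with CD206hi in that fit, and the difference between tumours 6 and 8 and the others was an interaction term. Low genes that filterByExpr removed were described but not tested, and passing it can depend on 1 group only. The scripts were tested on simulated data. Alternatives were no tumour block, DESeq2 1.42.0, RLE factors, other filters, a robust fit, voom and limma 3.58.1 (also on the log2 of the normalised values plus 1), fewer groups, and single libraries or tumours left out.

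Members and lists were chosen with earlier results of these data known. Named genes were the gate genes and markers, the 12 largest rises and falls (mean CPM of at least 10, same direction in 5 tumours), and of each of 38 lists up to 3 members per direction (mean CPM of at least 5) and up to 3 that did not pass. A few genes that meet this rule are not reported here. Promoter sequences and coordinates were from RefSeq (GRCm38.p6).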

Additional observations from a re-analysis of the deposited data

Results flagged for a closer look

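The CPM of each named gene was compared within its group of 5 libraries by Dixon's test for a single library far from the others. Over 227 genes and 454 groups of 5 values, 55 groups (12.1%) held such a library, most often the highest of its group. About 1 in 20 groups would pass the limit if the values were normally distributed. These were CPM on a linear scale, of genes partly chosen from these data, so the shares cannot be compared as a test of chance. In the CD206pos library of tumour 8, Arg1 (121), Aurka (17.9), Bhlhe41 (24.5), Cdc20 (23.5), Clec7a (138), Cx3cr1 (759.7), Cxcl10 (213), Fam189a2 (8.33), Havcr2 (156), Lrrc3 (5.21), Mcam (11.8), Mmp13 (181), Mmp14 (349.6), Rims2 (11.2) and Tnfsf9 (574) lay far above the other 4 libraries of the group, in CPM. In the CD206neg library of tumour 5, Arg1 (102), Csf1 (69.7), Ctse (85.3), Ctsl (509), Cxcl14 (191), F10 (5.36), Mmp12 (4077), Ndrg1 (94.0), Nt5e (145) and Sema4d (271) lay far above the other 4 libraries of the group, in CPM. In the CD206pos library of tumour 5, Bmp2 (140.2), Cd163 (511), Ednrb (1033), Entpd3 (54.4), Fpr1 (35.4), Lyve1 (528) and Thbd (169.6) lay far above the other 4 libraries of the group, in CPM. In the CD206neg library of tumour 11, C4b (39.8), Cd163 (2.51), Cd209b (1.13), Cd209f (3.39) and Cd209g (2.51) lay far above the other 4 libraries of the group, in CPM. In the CD206pos library of tumour 6, Cd24a (35.8), Cldn4 (4.13), Egfl7 (1.27) and Krt8 (80.6) lay far above the other 4 libraries of the group, in CPM. In the CD206neg library of tumour 8, Ccr2 (54.9), Cxcl13 (15.1) and Ms4a4c (65.7) lay far above the other 4 libraries of the group, in CPM. In the CD206pos library of tumour 10, Cd79b (22.2) and Oas1a (100.4) lay far above the other 4 libraries of the group, in CPM. The CD206neg library of tumour 6 lay far below the others for Gas6 (40.9 CPM). The CD206neg library of tumour 6 lay far above the others for Cxcl2 (7401 CPM). The CD206neg library of tumour 5 lay far below the others for Tyrobp (1198 CPM). The CD206neg library of tumour 8 lay far below the others for Trf (953 CPM). The CD206neg library of tumour 10 lay far above the others for Gapdh (625 CPM). The CD206pos library of tumour 8 lay far below the others for Steap3 (21.4 CPM). The CD206pos library of tumour 11 lay far above the others for Cd28 (9.66 CPM). Entpd3 and Gfra2 met the same test in the CD206neg library of tumour 11 (0.126 CPM each), but this is 1 count where the other 4 libraries had 0, under the limit of 3 counts, so it cannot be told from 0.

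The difference between CD206pos and CD206neg itself differed between tumours 6 and 8 and tumours 5, 10 and 11 for H2-Aa (-4.72 on the log2 scale), H2-Ab1 (-4.38 on the log2 scale), H2-Ea (-4.23 on the log2 scale), by the interaction term of the model with tumour as a block. The CD206neg libraries of tumours 6 and 8 are those whose deposited column names give high MHC class II.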

How the results depend on the processing

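Of 11052 genes, 2800 differed between CD206pos and CD206neg with tumour as a replicate block, and 1625 with no replicate block (978 higher, 647 lower). It was 262 with only tumours 6 and 8 (209 higher, 53 lower) and 1310 with a 2-fold limit. DESeq2, RLE factors, other filters, a robust fit, voom, limma on the normalised values, the 2 groups alone and the tumours 5, 10 and 11 alone gave 1985 to 3582. Leaving out 1 tumour or 1 library gave 1727 to 3246. Against CD206hi, 97 genes differed, with 21 for no replicate block, 315 for DESeq2, 370 for voom and 49 for limma on the normalised values, and 37 to 171 when 1 tumour or library was left out. The difference between tumours 6 and 8 and the others was called for 3 genes, for 0 with no replicate block (edgeR, 166 at an unadjusted p under 0.05), 9 with DESeq2, 5 with no filter and 5 with voom. It was called for 0 to 10 when 1 tumour or library was left out, where 285 to 889 passed unadjusted. The pairing came from the mouse, and the calls that the block changed are marked beside the genes. With only tumours 6 and 8, H2-Eb1 (-0.0114) and Nlrc5 (-0.0264) turned negative on the log2 scale, and 97 other named calls no longer passed. DESeq2 lost Ccr7 and H2-Eb1 and called 10 named genes that did not pass (Apoe, C1qa, C1qc, Cxcl2, Dusp1, Fth1, Il1b, Plaur, Tgfb1 and Tk1). Voom called 20 such genes, with H2-Aa, H2-Ab1, H2-Ea and Cd74 among them, and lost 1 (Cd24a), and limma on the normalised values lost 11. List medians near 0 changed sign with 1 tumour left out for apoptotic cell receptors, inflammatory mediators, pattern receptors, growth factors, haem and iron, matrix proteases and interferon-stimulated genes. The cause of these shifts was not tested, though settings with fewer libraries have fewer degrees of freedom. Counts of list members under other settings were computed after the data had been seen. A gene with no count in a library is limited only to 0.303 to 0.477 CPM.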
